A study of Mus musculus with 5 samples.

Results

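Krt5, Krt14, Krt15 and Krt17, the keratins that mark the basal layer of stratified squamous epithelium, were followed by their raw UMI counts (unique molecular identifiers, each tagging 1 captured mRNA molecule) in single cells of chemically induced mouse colon tumors under chemotherapy. The 4 genes were chosen by name, out of 21947 genes listed in the 4 treated libraries. Their levels, their detection in the same cells and their values by day were read in cells typed without any keratin, and cells that are not epithelial served as the measure of free RNA, the transcripts that leak from other cells into a droplet.

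The study induced the tumors with AOM/DSS (the carcinogen azoxymethane and the colitis agent dextran sodium sulfate) in mice of WT genotype, treated the animals with 5FU+Irinotecan, and took colon tumors through what the labels call normal dissociation for inDrop single-cell RNA sequencing. In the study's methods, digested tumor was passed over a filter and the retained epithelial fragments were kept, so the number of non-epithelial cells does not measure the tissue. The mice were C57BL/6J or of mixed C57BL/6J and 129 background, and the sources used here differ on whether days count from the start or the end of treatment. There were 2 libraries of day 1 and 1 library each of day 3 and day 6, and no tumor library without the drugs is compared here. A library of WT normal colon from a fibroblast dissociation, untreated, is another preparation and stood outside every comparison. Day 1 was taken as early and days 3 and 6 together as late, so a late against early difference does not separate day 3 from day 6. How many mice gave each library is not given in the sources used here, so p-values measure only the spread between these libraries.

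Keratins build intermediate filaments from 1 type I and 1 type II chain, and neither chain forms a filament alone. Krt5 is the type II keratin of basal squamous cells and Krt14 its main type I partner. Krt15, also type I, is known from basal cells and from the hair follicle bulge, and Krt17, type I as well, from skin appendages and from injured or activated epithelium. The columnar epithelium that lines the normal colon instead uses Krt8 with Krt18, Krt19 and Krt20.

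In the GENCODE M21 annotation of GRCm38, Krt5 lies on chromosome 15 from 101707070 to 101712898. The 3 type I genes lie within a single cluster on chromosome 11: Krt15 from 100131758 to 100135928, Krt14 from 100203162 to 100207548 and Krt17 from 100256217 to 100261029. All 4 are transcribed from the minus strand. Krt14 and Krt17 are the closest pair, with 84.1% of 1296 aligned coding bases identical, against 72.9% for Krt14 and Krt15 and 60.5% for Krt5 and Krt14. The longest run that Krt14 and Krt17 share is 71 bases, coding bases 1216 to 1286 of Krt14, which ends 319 bases before the end of its transcript. It is printed because short reads from it cannot be told apart between these genes, with the same stretch of Krt15 below it, in which capitals mark the 15 bases that differ from Krt14.
Krt14: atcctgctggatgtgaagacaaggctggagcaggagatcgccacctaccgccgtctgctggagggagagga
Krt17: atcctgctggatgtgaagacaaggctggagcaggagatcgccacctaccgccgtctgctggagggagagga
Krt15: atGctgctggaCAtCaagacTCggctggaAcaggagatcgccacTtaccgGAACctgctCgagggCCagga

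The stretch bears on the counts because inDrop reads start near the 3′ end of a transcript. Of the 351 windows of 50 bases in the last 400 bases, 22 of Krt14 and 22 of Krt17 occur in another gene's transcript, and none of Krt5 or Krt15 do. Over whole transcripts, 237 of 1649 windows of Krt14 are shared with Krt16 or Krt17, and 183 of 2148 windows of Krt5 with Krt6a, Krt6b or 2 predicted genes, Gm5414 and Gm5478. Krt14 and Krt17 counts may therefore hold some of each other's or Krt16's reads, whereas Krt15 and Krt5 counts from the 3′ end carry no such overlap at this window length.

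After cells with fewer than 500 genes or more than 15% mitochondrial counts were dropped, 748, 2403, 1419 and 2826 cells remained (both day 1 replicates, then day 3, then day 6), with a median of 2903 to 3601 UMIs per cell. Of these 7396 cells, 956 were gated as squamous from 14 squamous marker genes that include no keratin, namely 40, 100, 186 and 630 cells in that order. Krt14 and Krt5 were among the 10 genes with the highest fold in the squamous gate, beside Trp63 and Lgals7, so keratins left out of the gate still marked it. The columnar gate held 2547 cells and was the loosest, since none of its own markers was among its 10 leading genes and 6 of its 9 markers were above 2-fold. The non-epithelial gates (fibroblast, endothelial, neutrophil, macrophage, T cell, B and plasma cell) held 1412 cells, and 1803 cells were left without a type. Separate clustering put 883 of the 956 squamous cells in clusters named squamous by the same markers. A cluster of 123 cells that met no name, 119 of them from day 1 replicate 2, had Krt16, Krt17, Krt6a and Krt14 among its 10 leading genes, and adding it took the cluster-based squamous cells of that library from 67 to 186. In day 1 replicate 1 and day 3, both single index libraries, 82.5% and 93.0% of squamous cells sat in cluster 10, and in day 1 replicate 2 and day 6, both dual index, 49% and 48.3% sat in cluster 6. By the labels the single index libraries also ran on another sequencer than the dual index ones, so the effects of index and machine cannot be told apart. Early and late were represented once in each kind of library, and differences within a kind are given below. There were 110 cell barcodes that occurred in more than 1 treated library.

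Krt5 and Krt14 dominated the squamous cells of every library. Levels are given as CPM, a gene's UMIs per 1000000 UMIs of the cell class, always in that order of libraries. Krt5 stood at 5333, 6612, 5072 and 6518 CPM, a range that put 1 early and 1 late library on each side of the middle. Krt14 stood at 7976, 19491, 4894 and 9592 CPM. Its highest value came from day 1 replicate 2 and its lowest from day 3, and the early and late libraries overlapped. UMI counts from the 3′ end do not grow with the transcript's length, but how well each gene is captured was not measured. Ratios between genes are thus ratios of UMIs, and those of Krt14 may hold reads of Krt17 or Krt16. Krt14 reached 1.496, 2.95, 0.965 and 1.47 times the UMIs of Krt5, below it in day 3 alone.

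Krt15 was the keratin whose late libraries stood apart. In squamous cells it stood at 566 and 74.9 CPM in the day 1 replicates, against 1784 on day 3 and 2619.5 on day 6. Both late libraries lay above both early ones. In the 40 squamous cells of day 1 replicate 1, a single cell held 68 of the 188 Krt15 UMIs, and the level without it was 375 CPM. In day 1 replicate 2 a single cell held 26 of 66 UMIs, and the level without it was 46.2 CPM. The richest cell of day 6 held 1.93% of all Krt15 UMIs. The median squamous cell showed the same order, at 73.9, 0, 737 and 1623 CPM of Krt15 in its own UMIs.

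Krt17 did not separate early from late libraries. It stood at 933, 2487, 1189 and 561 CPM in squamous cells, highest in day 1 replicate 2 and lowest on day 6. The median cell held 0, 1831, 291 and 129 CPM of Krt17, so most Krt17 of day 1 replicate 1 came from a minority of cells, 1 of which held 98 of 310 UMIs. Day 1 replicate 2 was thus the library with the most Krt14 and Krt17 and the least Krt15.

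**Figure D1:**
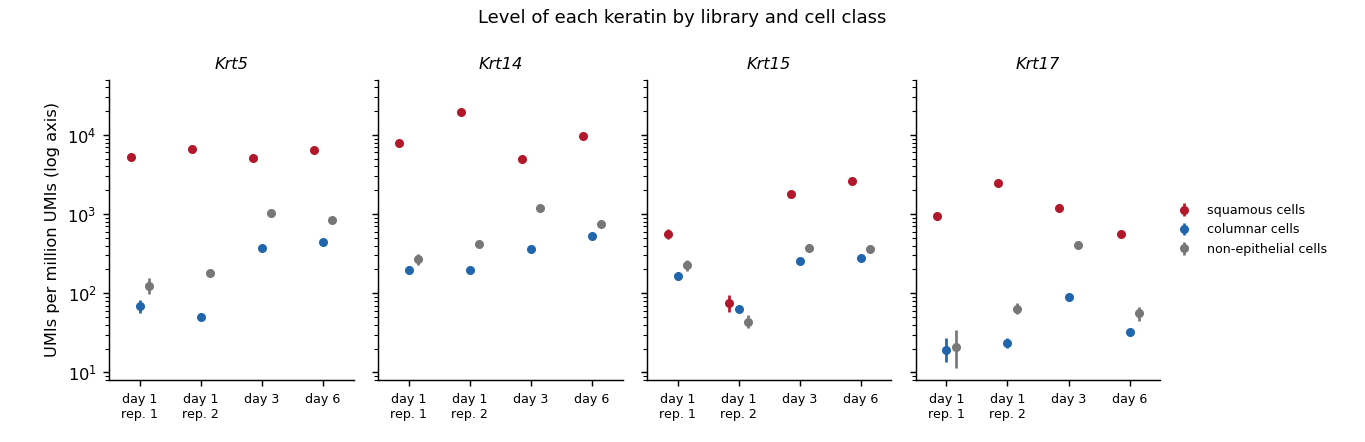
Level of each keratin (CPM, log axis) in the 4 treated libraries, for squamous, columnar and non-epithelial cells, with exact 95% Poisson intervals that cover counting error only. Krt5 of squamous cells stays between 5072 and 6612 CPM while Krt15 runs from 74.9 to 2619.5, and Krt5 outside the squamous cells is higher on days 3 and 6 than on day 1.

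The share each keratin took of the 4 summed followed the same lines. The sum came to 14808, 28665, 12940 and 19291 CPM in squamous cells. Krt15 made up 3.82%, 0.261%, 13.8% and 13.6% of it and Krt17 6.30%, 8.68%, 9.19% and 2.91%. Krt15 per Krt5 UMI was 0.106 (95% interval 0.0908 to 0.123), 0.0113 (0.00875 to 0.0144), 0.352 (0.331 to 0.374) and 0.402 (0.393 to 0.411), where intervals are exact binomial and cover counting error only. The 3 type I keratins together gave 1.78, 3.34, 1.55 and 1.96 UMIs per UMI of Krt5, their only type II member here.

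**Figure D2:**
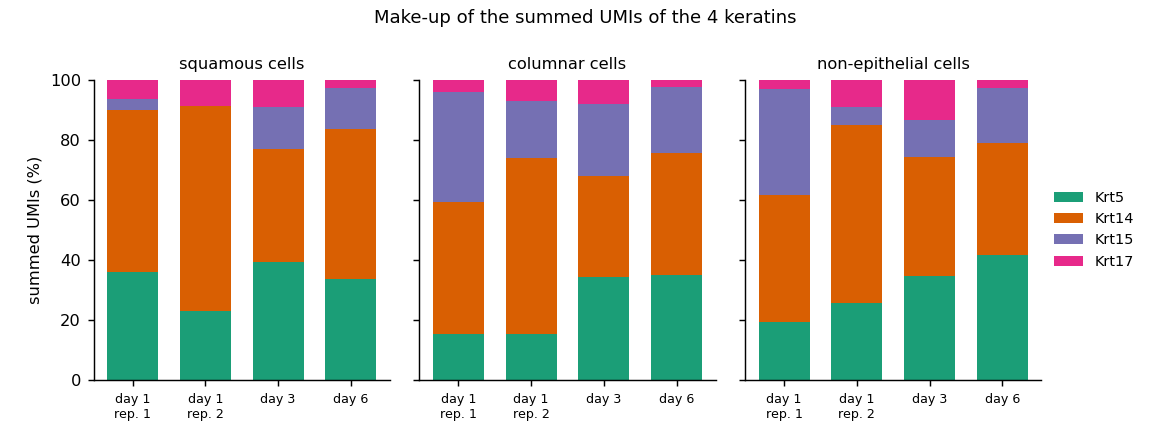
Percent of the summed UMIs of the 4 keratins that each gene gave, by library, in squamous, columnar and non-epithelial cells. Krt15 makes up 13.8% and 13.6% of the sum in squamous cells of days 3 and 6 against 3.82% and 0.261% on day 1, but 36.5% and 18.9% in columnar cells of day 1.

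Detection was compared after every cell was thinned to 1000 UMIs, which left out 8 squamous and 10 non-epithelial cells of day 6. Krt5 was seen in 97.5%, 93%, 96.8% and 97.9% of squamous cells and Krt14 in 95%, 98%, 91.9% and 92.3%. Without thinning the shares of Krt5 were 100%, 98%, 99.5% and 100%. In non-epithelial cells, the measure of background, the thinned shares were 11.6%, 12.5%, 46.2% and 54.7% for Krt5 and 28.6%, 28.7%, 37.97% and 52.1% for Krt14. The shares of squamous cells lay above these in every library, by intervals that did not overlap.

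Krt15 was seen in 17.5%, 11%, 52.7% and 67.2% of thinned squamous cells, and in 55%, 18%, 73.7% and 89.7% unthinned. The late mean was 45.7 percentage points above the early mean, with an exact two-sided permutation p of 0.333, which is the smallest that 2 against 2 libraries allow, so this design cannot pass 0.05. Non-epithelial cells of the same libraries, whose median depth before thinning was 2586 to 3131 UMIs against 3429 to 6983 in squamous cells, gave 10.2%, 4.46%, 27.9% and 34.4%. On day 1 the exact 95% binomial intervals of both classes overlapped (7.34% to 32.8% against 5.83% to 16.3% in replicate 1, and 5.62% to 18.8% against 3.03% to 6.30% in replicate 2), while the levels of all UMIs did not: 488 to 653 against 191 to 264 CPM in replicate 1 and 57.9 to 95.3 against 35.9 to 52.4 in replicate 2 (exact Poisson). In replicate 2 this gap of levels rested on 1 squamous cell with 26 of 66 Krt15 UMIs. Without it squamous cells stood at 46.2 CPM, within the non-epithelial interval. Without the richest cell of each class, replicate 1 stood at 375 CPM in squamous and 127 in non-epithelial cells. On days 3 and 6 the thinned shares of squamous cells lay above those of non-epithelial cells (45.3% to 60.0% against 21.02% to 35.5%, and 63.4% to 70.9% against 29.9% to 39.2%).

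Krt17 was seen in 25%, 58%, 34.4% and 27.5% of thinned squamous cells, with 1.36%, 5.94%, 22.2% and 6.84% of non-epithelial cells. The interval of squamous cells lay above that of non-epithelial cells in day 1 replicate 1 (12.7% to 41.2% against 0.165% to 4.83%), day 1 replicate 2 and day 6, and overlapped it on day 3 (27.6% to 41.7% against 15.9% to 29.4%). The late mean was 10.6 points below the early mean (exact permutation p = 1), and without day 1 replicate 2 it was 5.95 points above it.

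**Figure D3:**
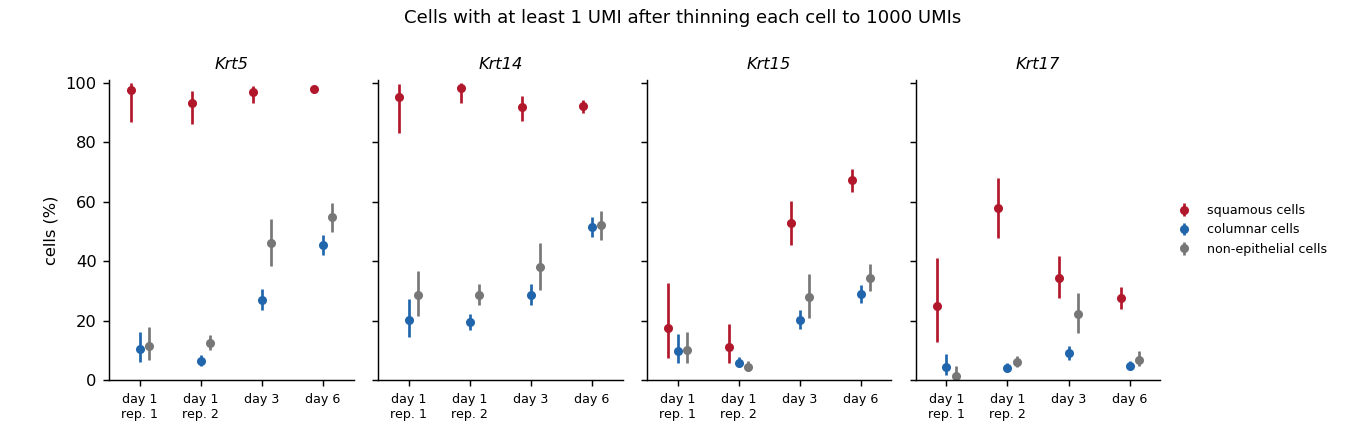
Percent of cells with at least 1 UMI of each keratin after thinning to 1000 UMIs per cell, by library and cell class, with exact 95% binomial intervals. Krt5 and Krt14 are at 91.9% or more in squamous cells, Krt15 is at 17.5% and 11% on day 1 and at 52.7% and 67.2% later, and the non-epithelial level of Krt5 goes from 11.6% and 12.5% to 46.2% and 54.7%.

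Co-detection was set beside the product of the single shares, which leaves little room to differ where both are above 90%. Krt5 and Krt14 were found together in 92.5%, 93%, 89.8% and 90.8% of thinned squamous cells, where independent detection would give 92.6%, 91.1%, 88.97% and 90.35%. A type I member without Krt5 was found in 1 of 40, 5 of 100, 4 of 186 and 12 of 622 cells, and none of the 4 keratins in 0, 2, 2 and 1 cells. All 4 keratins were found in 0%, 5%, 11.8% and 19.1% of squamous cells, where 0 of 40 cells carries an exact 95% upper limit of 8.81%. Krt15 and Krt17 were found together in 0%, 5%, 12.4% and 19.3%, against 4.38%, 6.38%, 18.1% and 18.5% under independence. On day 3 the joint share was below the product, which lay just outside its exact 95% interval of 8.003% to 17.97%, and in the other 3 libraries the product lay within the interval. The product is itself an estimate from the same cells, and its spread is not in the interval, so independence was not tested.

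The squamous cells were further split by non-keratin markers into basal-marked cells (by 5 genes, among them Trp63, Col17a1 and Itga6) and suprabasal-marked cells (by 6 genes, among them Krtdap, Sbsn and Ly6d), which are ranges of a score and not types. Basal-marked cells numbered 19, 72, 61 and 244, which is 47.5%, 72%, 32.8% and 38.7% of squamous cells, and suprabasal-marked cells 17, 18, 78 and 274. The rest, 4, 10, 47 and 112 cells, lay within 0.3 score units of the line. The stratum therefore varied in size between libraries, and every stratum value of day 1 rests on few cells.

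Krt17 was higher in basal-marked than in suprabasal-marked cells of every library. It stood at 1676, 3330, 2358 and 1049 CPM in basal-marked cells, against 167, 899, 468 and 204 in suprabasal-marked cells. The ratio was 10.02, 3.71, 5.04 and 5.13. Krt15 was also higher in basal-marked than in suprabasal-marked cells of all 4 libraries, by 9.12, 2.57, 1.74 and 1.20 times. The 2 early ratios rest on 13 and 6 UMIs in suprabasal-marked cells, and in day 1 replicate 2 the exact Poisson intervals overlapped (45.8 to 89.6 against 9.29 to 55.1). Unlike Krt17, Krt15 did not peak in basal-marked cells of both day 1 replicates and day 3. There the cells between the strata held 1765, 308 and 2703 CPM of Krt15, against 826, 65.0 and 1928 in basal-marked cells. On day 6 it was 2687 against 2877.

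Krt5 and Krt14 did not follow the stratum. The basal to suprabasal ratio of Krt5 was 0.676, 1.27, 0.824 and 0.897, on both sides of 1. Krt14 was lower in basal-marked cells on day 1, at 0.521 and 0.487, and about level on days 3 and 6, at 1.05 and 1.15. Suprabasal-marked cells of day 1 replicate 2 held 29133 CPM of Krt14, the highest level of any member in either stratum.

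**Figure D4:**
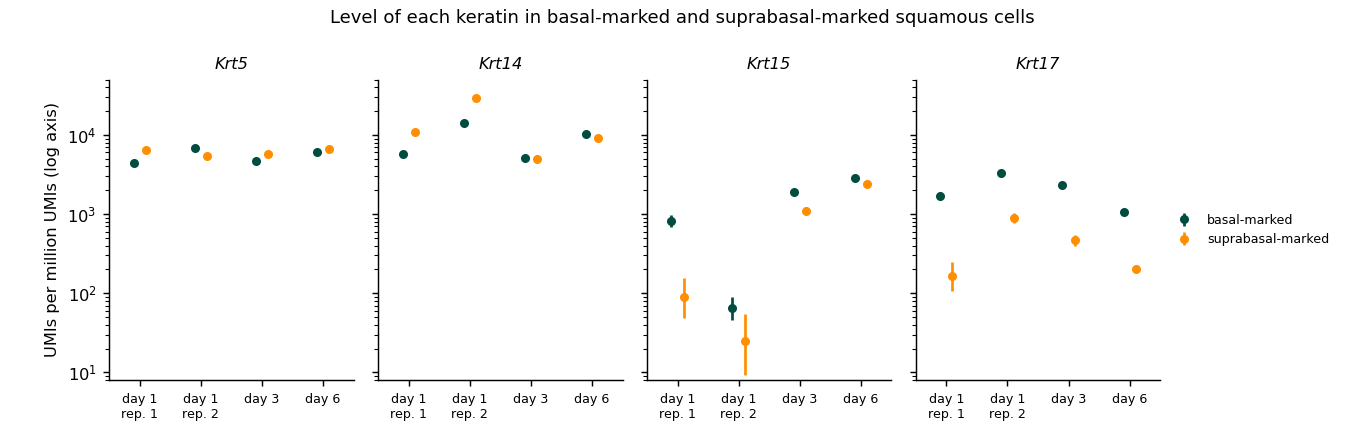
Level of each keratin (CPM, log axis) in basal-marked and suprabasal-marked squamous cells of each library, with exact 95% Poisson intervals. Krt17 is higher in basal-marked cells of all 4 libraries, 10.02, 3.71, 5.04 and 5.13 times, whereas the 2 strata of Krt5 stay within 0.676 to 1.27 times of each other.

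Outside the squamous cells the keratins were found at lower levels that differed by day. Krt5 in columnar cells stood at 68.6, 50.6, 368 and 449 CPM, and in non-epithelial cells at 124, 182, 1042 and 835. Both classes had higher values in both late libraries. The non-epithelial level was 2.33%, 2.76%, 20.5% and 12.8% of that of squamous cells, while squamous cells made up 10.3%, 8.43%, 20.04% and 37.5% of gated epithelial cells. The part of the squamous share in these levels was not tested. Krt5 was uneven over non-epithelial cells: 1 of 147, 18 of 673, 31 of 158 and 72 of 434 cells held 5 or more of its UMIs. These cells, picked by a cut that favors deep cells, held 32.1%, 55.9%, 75.5% and 51.8% of the non-epithelial Krt5 UMIs. The other non-epithelial cells stood at 85.5, 82.2, 336.5 and 573 CPM. The part of doublets in this was not tested.

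Krt14 followed the same pattern, at 198, 194, 362 and 527 CPM in columnar cells and 268, 419, 1179 and 748 in non-epithelial cells. Krt17 stood at 19.3, 23.7, 88.8 and 32.4 in columnar cells and 20.7, 64.1, 403 and 55.5 in non-epithelial cells. The day 3 value of non-epithelial cells rests on few cells, since 1 fibroblast-gated cell held 108 of the 283 UMIs and the level without it was 252. Krt15 stood at 165, 62.6, 254 and 281 in columnar cells and 225, 43.6, 372 and 366 in non-epithelial cells, where 1 neutrophil-gated cell of day 1 replicate 1 held 70 of 152 UMIs.

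By single cell type, squamous cells held the most Krt5 and Krt14 in all 4 libraries. The next level of Krt5 was that of macrophage-gated cells in day 1 replicate 1 and day 3 (223 and 2359 CPM, the latter from 10 cells) and of neutrophil-gated cells in day 1 replicate 2 and day 6 (292 and 1054). Goblet cells, the mucus makers of the colon, stood at 109.9, 41.3, 755 and 530.5 CPM of Krt5, and enteroendocrine cells, its hormone makers, at 44.4, 39.1, 1092 and 522. Endothelial cells stood at 46.6, 124, 836 and 867. Outside squamous cells, every type with 10 or more cells in each library was thus higher in Krt5 in both late libraries, epithelial or not. Cells left without a type had 231, 424, 1369.5 and 1564 CPM of Krt5.

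The order was less clear for Krt15 and Krt17. In day 1 replicate 1 the Krt15 level of squamous cells, 566 CPM (488 to 653, exact Poisson), overlapped that of neutrophil-gated cells, 431 (349 to 527). That overlap rested on 1 neutrophil-gated cell with 70 of 95 UMIs. Without the richest cell of each type, neutrophil-gated cells stood at 130 CPM and squamous cells at 375. The only T cell of that library read 597. In day 1 replicate 2 squamous cells (57.9 to 95.3) overlapped columnar cells (57.5 to 68.1). On days 3 and 6 squamous cells were the highest, with 907 CPM in macrophage-gated cells and 539 in neutrophil-gated cells next. For Krt17, fibroblast-gated cells of day 3 read 1265 CPM against 1189 in squamous cells, and 519 without the fibroblast-gated cell that held 108 UMIs. In the other 3 libraries the highest Krt17 outside squamous cells was 84.6, 103 and 95.02 CPM among gated types.

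Krt15 outside the squamous cells did not keep the squamous ratio to Krt5 on day 1. Krt15 per Krt5 UMI in columnar cells was 2.40 (1.93 to 2.99), 1.24 (1.09 to 1.41), 0.690 (0.634 to 0.750) and 0.625 (0.592 to 0.660), in each library above the squamous ratio of 0.106, 0.0113, 0.352 and 0.402. In non-epithelial cells the ratio was 1.81, 0.239, 0.357 and 0.438. It lay above the squamous ratio in both day 1 replicates, and its interval overlapped that of squamous cells on days 3 and 6 (0.309 to 0.412 and 0.398 to 0.482).

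Part of this Krt15 sat in a few columnar cells. In day 1 replicate 1, 11 of 162 columnar cells held 5 or more Krt15 UMIs, 170 of the 290 in all, with 15 Krt5 UMIs between them. In day 1 replicate 2, 25 of 851 cells held 253 of 551, with 23 of Krt5. On day 3, 24 of 621 cells held 397 of 947, with 275 of Krt5, and on day 6, 152 of 913 cells held 1126 Krt15 UMIs with 1253 of Krt5. The cells were picked for Krt15, and Krt5 was low in all columnar cells of day 1, at 68.6 and 50.6 CPM. Their median depth was 16655, 18807, 8617.5 and 18868.5 UMIs by library, against 6408, 6796, 4512 and 2853 in the other columnar cells. A fixed cut of 5 UMIs itself favors deep cells, and the part of doublets in the picked cells was not tested. Without them the ratio of Krt15 to Krt5 was 1.13, 0.706, 0.501 and 0.471.

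Late against early was tested on counts summed per library, with edgeR's quasi-likelihood test and Benjamini-Hochberg adjustment over all genes tested. In squamous cells 0 of 9162 genes passed an adjusted p of 0.05 (0% called), although 383 genes (4.18%) had an unadjusted p under 0.05 and DESeq2 called 18. Krt15 was 2.97 ± 0.91 log2 units higher late (SE, 2 against 2 libraries), with an unadjusted p of 0.00916 and an adjusted p of 0.999, rank 69 by p. Both late libraries lay above both early ones, as they did for 16.6% of genes tested. The single index pair differed by 1.90 and the dual index pair by 5.15 (log2).

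Krt15 passed in some alternatives and not in others. DESeq2 gave 2.94 with an adjusted p of 0.0388, and no filter on low counts gave 3.05 with 0.0158. Without day 1 replicate 1, edgeR gave 4.96 with an adjusted p of 0.0272, and without day 1 replicate 2 it gave 2.12 with 1.00. It was 2.62 in basal-marked cells alone and 5.02 in suprabasal-marked cells alone, with adjusted p of 0.988 and 0.447, both fits added after the data were seen.

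The other 3 members gave no call in squamous cells, and none had both late libraries below both early ones, as 15.6% of genes did. Krt5 differed by 0.08 ± 0.65 log2 units and was the most even of the 4 over the libraries. Krt14 was -0.82 ± 0.76 and Krt17 -0.84 ± 0.73, each with an adjusted p of 0.999. Without day 1 replicate 2 they were 0.02 and 0.09, so the sign of both rests on that library.

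In columnar cells 0 of 12911 genes passed (0% called, 1405 or 10.9% at an unadjusted p under 0.05, 183 by DESeq2). All 4 keratins were higher in both late libraries than in both early ones, which held for 21.7% of genes tested. Krt5 was 3.14 ± 0.44 log2 units higher (adjusted p = 0.261), Krt14 1.54 ± 0.42 (0.433), Krt15 1.58 ± 0.56 (0.445) and Krt17 1.82 ± 0.52 (0.433), by edgeR's quasi-likelihood test. For Krt5 the single index pair differed by 2.65 and the dual index pair by 3.58. The difference of Krt15 moved with the day 1 libraries, to 2.54 without replicate 1 and 1.01 without replicate 2.

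Non-epithelial cells, which should lack these keratins, differed in the same direction as the columnar cells, and the part of free RNA in the columnar values was not tested. Among 10869 genes 0 passed (0% called, 729 or 6.71% at an unadjusted p under 0.05, 60 by DESeq2), and 18.5% had both late libraries above both early ones, as all 4 members did. Krt5 was 2.80 ± 0.51 log2 units higher late (adjusted p = 0.504 by edgeR), Krt14 1.67 ± 0.52 (0.639), Krt15 1.64 ± 0.80 (0.777) and Krt17 2.52 ± 0.95 (0.721). For Krt17 the single index pair gave 4.26 and the dual index pair 0.14. The difference of Krt15 was 3.33 without day 1 replicate 1 and 0.87 without day 1 replicate 2.

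Whether a member's difference in squamous cells departed from that in columnar cells was tested as an interaction with library as a block, in which 7 of 12650 genes passed (0.0553% called, with 7.63% at an unadjusted p under 0.05 and 39 genes by DESeq2). Krt5 was one of them: its difference in squamous cells was 3.10 ± 0.40 log2 units below that in columnar cells (interaction -3.10, adjusted p = 0.0354, edgeR). The call rested on both day 1 libraries and on keeping the cells of highest Scrublet score. The interaction was -3.58 without day 1 replicate 1 and -2.49 without day 1 replicate 2. With the 6% of cells of highest Scrublet score removed from each library it was -2.92 (adjusted p = 0.0839). These alternatives, all by edgeR, were chosen after seeing the data. The stricter gate, which also drops cells, kept the call at -3.13 (adjusted p = 0.0478, edgeR). Krt14 gave -2.28 ± 0.48 (adjusted p = 0.200) and Krt17 -2.56 ± 0.45 (0.101), and both passed with DESeq2 (0.00741 and 0.00144). Krt15 alone was positive, at 1.72 ± 0.44 (0.319). The non-epithelial values above move with the columnar side of this test, and their part in it was not tested.

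**Figure D5:**
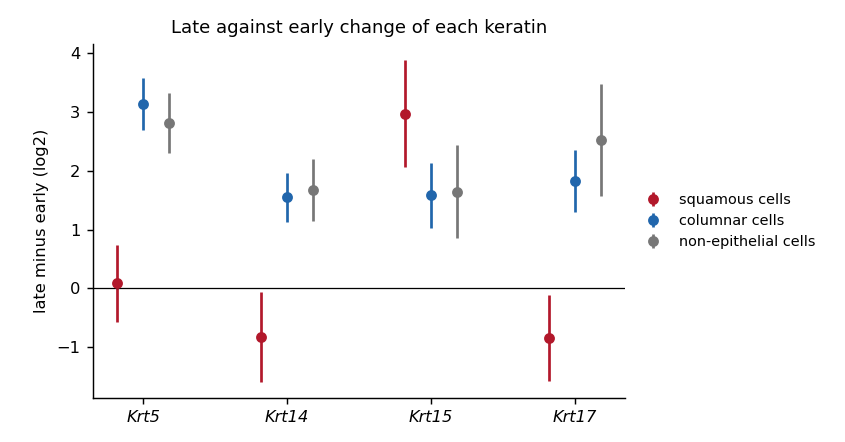
Late minus early log2 difference of each keratin with its SE, from edgeR, in squamous, columnar and non-epithelial cells (2 late against 2 early libraries). In squamous cells only Krt15 lies above 0 by more than its SE, at 2.97, while all 4 keratins lie above 0 in the other 2 classes, Krt5 by 3.14 and 2.80.

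Other genes of squamous epithelium were read from fixed lists, and none of those tested in squamous cells passed in either direction by edgeR (levels that follow are TMM-scaled CPM). Trp63, Col17a1, Dsg3, Dsc3 and Pkp1 of these lists also served as gate markers. In basal adhesion genes, which anchor basal cells to the basement membrane, 7 of 9 were lower late, with a median of -0.97 against 0.03 over all genes. Cd44, a hyaluronan receptor, was at 736, 1508, 599.6 and 550.5 CPM. Itga6 and Lama3 also had their highest value in day 1 replicate 2, at 1331 and 1224.

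Suprabasal and stress keratins split, with 4 of 7 higher late and a median of 0.17. Krt4, the type II keratin of mucosal suprabasal cells, was at 306, 33.4, 801 and 2161 CPM. Its partner Krt13 was at 4308, 2424, 5196 and 6858, and both had the same order of libraries as Krt15. Krt10 of this list was at 14.2, 20.7, 230 and 143 CPM. It was 3.36 log2 units higher late, with rank 4 by p against 69 for Krt15 (adjusted p = 0.419, edgeR). Both late libraries lay above both early ones for Krt4, Krt10 and Krt13, as for Krt15, and below them for Krt6a and Krt16. The stress keratins Krt6a and Krt6b were highest in day 1 replicate 2, at 17182 and 7288. By library Krt6a stood at 9705, 17182, 7356.5 and 6765 CPM, against 5012, 6701, 5643 and 6782 for Krt5 on the same scale. Of the squamous transcription factors 5 of 8 were higher late with a median of 0.12, and Trp63 stood at 478, 284, 174 and 447, Pitx1 at 521, 301, 531 and 416, Sox2 at 142, 74.8, 124 and 220.4 and Klf5 at 226, 260.0, 338 and 242.

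Desmosome genes, which join squamous cells to each other, were lower late in 6 of 8 with a median of -0.63. Perp was at 1398, 1355, 516 and 1251, Jup at 996, 716, 1348 and 541, and Pkp1 and Pkp3 differed by -0.09 and 0.28 log2 units. All 5 columnar keratins had a fitted difference above 0 in squamous cells, with a median of 0.81, but in the dual index pair Krt8 and Krt18 were lower late (-0.31 and -1.94). Krt18 stood at 90.6, 204, 476 and 52.2 CPM, Krt8 at 374, 1158, 1443 and 937 and Krt20 at 82.1, 85.1, 281 and 399.7 CPM, with differences of 0.74 for Krt19 and 1.01 for Krt7. Krt20 had an adjusted p of 0.892.

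In columnar cells, 7 of 7 squamous transcription factors tested and 6 of 7 suprabasal and stress keratins were also higher late, with medians of 1.97 and 1.47 against 0.03 over all genes. In non-epithelial cells it was 5 of 5 and 7 of 7, with medians of 2.15 and 1.95 against 0.06. The columnar factors ranged from 3.76 for Sox2 and 3.45 for Pitx1 to 0.19 for Grhl3, 0.08 for Zfp750 and 0.0041 for Klf5. The largest of these start from very low day 1 levels. In columnar cells Sox2 stood at 0.522, 0.877, 11.7 and 10.1 CPM and Pitx1 at 4.17, 2.63, 44.5 and 26.4. Of the basal adhesion genes 7 of 9 were higher late in columnar cells (median 0.66) but 4 of 9 in non-epithelial cells (median -0.09). Desmosome genes gave 8 of 8 and 5 of 6, with medians of 0.69 and 1.25, and columnar keratins 4 of 5 and 5 of 5, with medians of 0.37 and 0.47. None of these genes passed, and the 4 members had medians of 1.70 and 2.10.

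Likeness across cell types was taken as Pearson's r of log2(CPM + 10) over 39 sums of library and cell type, among 10326 genes, as a description with no p, since the sums share libraries and free RNA. Krt5 was most like Krt14 (r = 0.937), then Calml3, Ly6d, Krt6a and Pitx1, of which Ly6d and Calml3 were also squamous or suprabasal markers. Krt14 was most like Krt6a (0.969), then Krt5, Krt6b, Tmprss11g and Tmem45a. Krt15 was most like Krt4 (0.903), then Krt13, Cyp2f2, Cbr2 and Ly6d, none of them a member of the family described here. Krt17 was most like Lgr6 (0.917), a receptor for R-spondins, then Aqp3, Krt14, Lypd3 and Krt6a. Among the members, Krt15 and Krt17 were the least alike, at 0.487, and Krt14 and Krt15 stood at 0.643.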

How the data were processed

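The authors aligned inDrop reads with dropEst to mouse GRCm38 and deposited raw UMI counts per gene and cell. Cells with at least 500 genes and at most 15% mitochondrial counts were kept, and typed by a multinomial model on fixed marker genes without keratins (posterior of at least 0.99, at least 2 markers). Scrublet called 4, 4, 13 and 0 doublets, so few that it did not work, and all cells were kept. Members and lists were chosen with earlier results of these data known. Counts were summed per library and class over the 18069 genes listed in all 4 treated libraries and tested with edgeR 4.0.16 in R 4.3.3 (TMM, filterByExpr, quasi-likelihood, threshold 0.05), after tests on simulated data, and with DESeq2 1.42.0 as an alternative. Alternatives covered scaling, filter, index structure, gates, clusters, doublet scores and leaving out libraries. Named genes were the members, the 5 genes most like each, and up to 4 per fixed list by level in squamous cells, with some further list genes, Krt10 among them. Class totals were 332114 to 4404261 UMIs for squamous cells. Counting error was not set against the spread of libraries, and some counts were small, such as 66 Krt15 UMIs in squamous cells of day 1 replicate 2.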

Additional observations from a re-analysis of the deposited data

Results flagged for a closer look

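The late against early difference of Krt5 in squamous cells departed from that in columnar cells by -3.10 log2 units (SE 0.40, adjusted p = 0.0354, edgeR with library as a block). The call was lost without day 1 replicate 1 (-3.58, adjusted p = 0.109), without day 1 replicate 2 (-2.49, 0.947) and with the highest Scrublet scores removed (-2.92, 0.0839). It was kept with DESeq2 (-3.09, adjusted p = 5.07e-07) and with the stricter gate (-3.13, 0.0478, edgeR). Krt5 in non-epithelial cells differed late against early by 2.80, and its part in the columnar side was not tested.

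In the normal colon stroma library, which no comparison used, 1095 cells held 8 UMIs of Krt14, 9 of Krt15 and 1 of Krt17. The first 2 were flagged by a cut of more than 3 UMIs. These counts are 1.38, 1.55 and 0.173 CPM, and no background was measured in this library, so they do not show expression. Krt5 is not listed there. No tumor library without the drugs was compared.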

How the results depend on the processing

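No paired analysis was possible because day 3 and day 6 have 1 library each, so the groups compared share fewer than 2 replicate numbers. Library structure, which holds 1 early and 1 late library in each kind, was fitted as a block instead, and changed no member's call (Krt15 in squamous cells 3.51, adjusted p = 0.120, edgeR). The cluster alternative was not run for columnar cells, since clusters named columnar held 4 and 2 cells of day 1 replicate 1 and day 3. Genes called, 0 in each class, became 18, 183 and 60 with DESeq2 in squamous, columnar and non-epithelial cells, and 102, 30 and 113 with no filter on low counts. Squamous cells gave 10 with library structure as a block, and the interaction, 7 genes, gave 39 with DESeq2. Leaving out a library gave 12 to 65, 0 to 986 and 0 to 1190 calls, where the lone library of an arm is assumed to vary like the others. The highest counts came without day 1 replicate 1, day 3 and day 6 in that order.

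Among alternative log2 changes of members, 137 kept direction and side of the threshold, 23 came to pass it, 3 (all of the Krt5 interaction) no longer passed and 5 turned direction. Krt15 in squamous cells passed at 2.94 with DESeq2 and 3.05 with no filter, and leaving out a library gave 2.12 to 4.96. Krt5 passed with DESeq2 and with no filter at 3.15 and 3.16 in columnar cells and 2.81 and 2.79 in non-epithelial cells. Krt14 and Krt17 passed the interaction with DESeq2 at -2.27 and -2.54. Leaving out a library gave 2.88 to 3.46 for Krt5, 1.19 to 1.84 for Krt14, 1.01 to 2.54 for Krt15 and 1.00 to 2.35 for Krt17 in columnar cells, with calls for Krt5 without day 3 (3.33) or day 6 (2.94), for Krt14 without day 3 and for Krt17 without day 6. In non-epithelial cells it gave 2.60 to 3.06, 1.42 to 1.97, 0.87 to 3.33 and 0.62 to 3.52, with calls for Krt5 without day 3 (2.74) or day 6 (2.85), and for Krt14 (1.87) and Krt17 (3.27) without day 6. The near-zero difference of Krt5 in squamous cells was -0.04 in clusters and -0.10 to 0.29 without a library, that of Krt14 ran from -1.35 to 0.02 and that of Krt17 from -1.54 to 0.09, above 0 without day 1 replicate 2.

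The joint share of Krt5 and Krt14, -2.44 points late minus early, was 0.185 with thinning to 2000 UMIs and 3.45 with the stricter gate. Without a library, the share of Krt5 differed by -0.158 to 4.34 points and that of Krt17 by -27.1 to 5.95. The difference of Krt15 was 38.4 to 53.0 points, above 0 in each. The log2(CPM + 50) scale kept 4 of the 5 genes most like each member. The cause of these changes was not tested. Chosen after seeing the data, leaving out each library gave 0 to 555 interaction calls: 0 by edgeR without either day 1 library (940 and 586 genes at an unadjusted p under 0.05), 555 without day 3 and 139 without day 6, with 1 residual degree of freedom. The interaction of Krt5 ran from -3.58 to -2.49, that of Krt14 from -3.04 to -1.39, that of Krt15 from 1.21 to 2.39 and that of Krt17 from -3.16 to -1.70. All 4 passed without day 3 and without day 6, and none without either day 1 library. Removing the highest Scrublet scores left 0 interaction calls by edgeR (942 at an unadjusted p under 0.05), with Krt5 at -2.92. The smallest class sum was 40 squamous cells, in day 1 replicate 1.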
